A study of Mus musculus with 20 samples.

Results

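Mouse prostates in early regrowth under testosterone were compared with intact prostates across the genes of an Affymetrix mouse expression array, to ask which transcripts had overshot the intact level and which had not yet returned to it. The comparison uses 10 of the 20 arrays of the series, chosen by their labels alone: 5 from the testosterone group and 5 from sham-treated mice. All 12422 probe sets other than Affymetrix controls were read, of which 6913, standing for 5372 genes, were bright enough to test. All mice were C57/B6, aged 10 to 12 weeks, and each array holds the whole prostate of 1 mouse. In the testosterone group a pellet of 15 mg testosterone was placed 14 days after castration and the gland was taken 3 days later. The labels call the control sham-treated, with the code N3, and name no placebo pellet for any group. Castrated mice taken at 14 days, without testosterone, give the level from which regrowth began (5 arrays). A group taken 3 days after castration enters the model but no comparison below.

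The prostate is a gland of secretory luminal cells, basal cells and a smooth muscle and fibroblast stroma, and its epithelium depends on androgen. When androgen is withdrawn, luminal cells shrink and many die, while stroma and basal cells largely persist. When androgen returns, the remaining cells divide, rebuild the ducts and resume the synthesis of secreted proteins, which are folded in the endoplasmic reticulum (ER).

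Values are MAS5 signals, which are linear intensities of a probe set, and changes are differences of log2(signal + 12.7) between group means with the standard error (SE) of the limma model. A probe set is called when its Benjamini-Hochberg adjusted p in limma is under 0.05. Single arrays are listed in the order of replicates 1 to 5, which only names them. Levels of different genes are not compared, since a signal also depends on the probes. Because whole glands were measured, fewer cells of a type and less RNA per cell cannot be told apart. The running numbers in the array titles follow the groups and the labels name no batch, so that a batch and the treatment cannot be told apart.

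Probasin, the androgen-dependent secreted protein of the mouse prostate, and the luminal keratin Krt8 were bright on all 10 arrays, while the basal keratin Krt5 did not pass the filter. Other basal genes did: 10 of the 15 basal epithelial genes on the array were tested. Of these 3 were higher and 1 lower than sham, where 24.6% and 28.6% of all genes were, or 7 higher with each array centred. After castration 7 of the 10 were higher. The array medians averaged 195 in sham and 173 in the testosterone group (exact permutation test, two-sided p = 0.0476, 0.0952 after adjustment over 4 quality measures, smallest p that 5 against 5 allows 0.00794). Signals at or below the pseudocount made up 7.14% of probe sets in sham and 12.1% in the testosterone group (exact permutation p = 0.0159, adjusted 0.0635). The log2 ratio of the 3′ to the 5′ control probe sets of Gapdh, which rises when RNA is degraded or copied short, was 4.54 and 3.93 in testosterone replicates 2 and 5, and between -0.39 and -0.13 on the sham arrays (exact permutation p = 0.198). The other testosterone arrays lay between -0.25 and -0.24, and castrated replicates 4 and 5 at 2.05 and 1.82. Sham replicate 1 stood apart from its group for 7 of the 81 genes examined among those named below, and without it 1633 probe sets were higher and 2013 lower than sham, against the 1624 and 2041 given next.

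A large share of the measured transcripts differed between the regrowing and the intact gland. In all, 1624 probe sets were higher in the testosterone group (23.5%) and 2041 were lower (29.5%), or 53% in either direction. Of these, 401 were at least 2-fold higher (5.8%) and 295 at least 2-fold lower (4.27%), the latter count being 189 once the 4 arrays with a high Gapdh ratio were dropped. The 10 arrays did not overlap for 2172 probe sets (31.4%). The split between directions depended on the scaling: the median change was -0.09, and when each array was centred on its own median it became 0.08, with 2026 probe sets higher and 1206 lower (62.7% of calls higher, against 44.3%). The filter let 183 probe sets through only by their testosterone arrays, 122 of them called higher, and 207 only by their sham arrays, 118 of them called lower.

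Set beside the level after 14 days of castration, the called probe sets fell into 4 kinds, which share the sham arrays with the castration comparison, so that an error in the sham means moves both. Not yet recovered were 1061, which castration had moved and which lay between the castrated and the sham level (548 higher and 513 lower than sham), and 409 of these differed from the castrated level itself. Further from sham than after castration were the means of 980 (432 higher, 548 lower), 291 of which differed from the castrated level. From the sham level, with no call for castration, 914 had overshot (407 higher, 507 lower). Another 236 had passed from one side of sham to the other (94 higher, 142 lower), and 474 fitted none of these. With each array centred, the overshoot from the sham level became 641 higher and 193 lower. The scatter of both changes shows the 4 kinds as sectors.

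**Figure D1:**
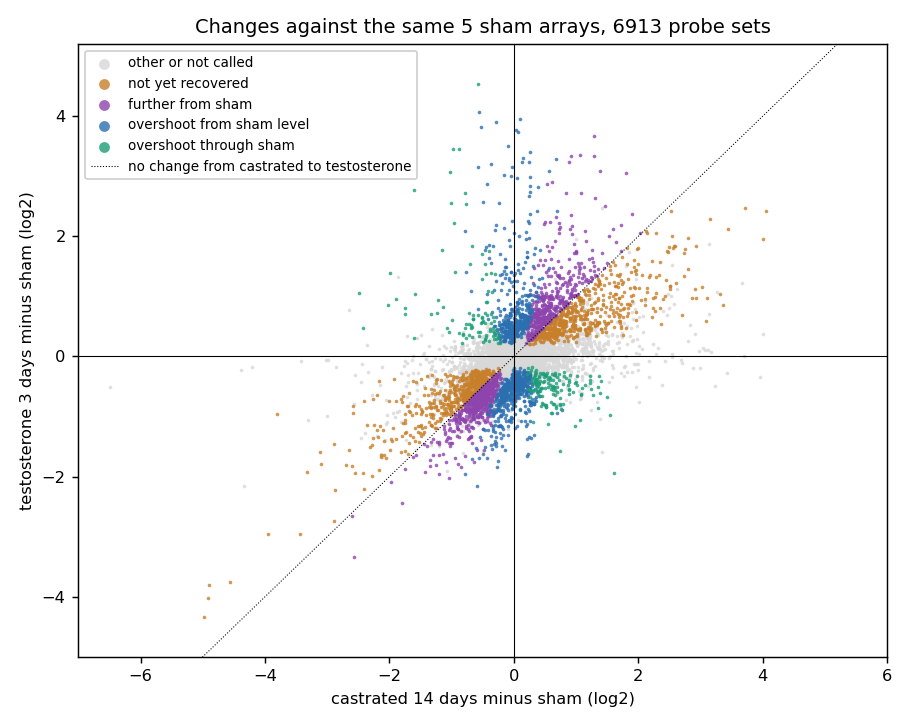
Each point is 1 of 6913 probe sets, with the log2 change after 14 days of castration against sham on the horizontal axis and the log2 change after 3 days of testosterone against the same 5 sham arrays on the vertical axis. Colours give the 4 kinds, grey all others, and points on the dotted diagonal had the same level in both groups. The 236 probe sets that passed through the sham level lie in the upper left and lower right fields of the plot.

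Recovery was partial and uneven. The recovered share is the distance from the castrated to the testosterone mean, in percent of the distance from the castrated to the sham mean on the log2 scale. For 1980 probe sets raised by castration its median was 53.1% (quartiles 7.90% and 95%), and 22.6% of them had passed the sham level. For 1679 probe sets lowered by castration the median was 28.5% (quartiles -14.6% and 71.3%), and 14.2% had passed it. Among those changed at least 2-fold by castration the medians were 60.2% (575 raised) and 42.2% (368 lowered). All these probe sets were chosen by the castration change. The same castrated and sham arrays enter the recovered share, so that an error in their means moves both the choice and the share. Taken array by array, the raised probe sets had medians of 56.8%, 38.0%, 58.9%, 57.1% and 46.8%, and the lowered ones 51.8%, 5.80%, 40.3%, 39.5% and 17.1%. The lowest values of both belong to replicates 2 and 5, whose Gapdh ratio is high. Without the 4 such arrays the medians were 59.4% and 43.8%, and with each array centred 31.6% and 49.6%, so that which side recovered further turned with the scaling.

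**Figure D2:**
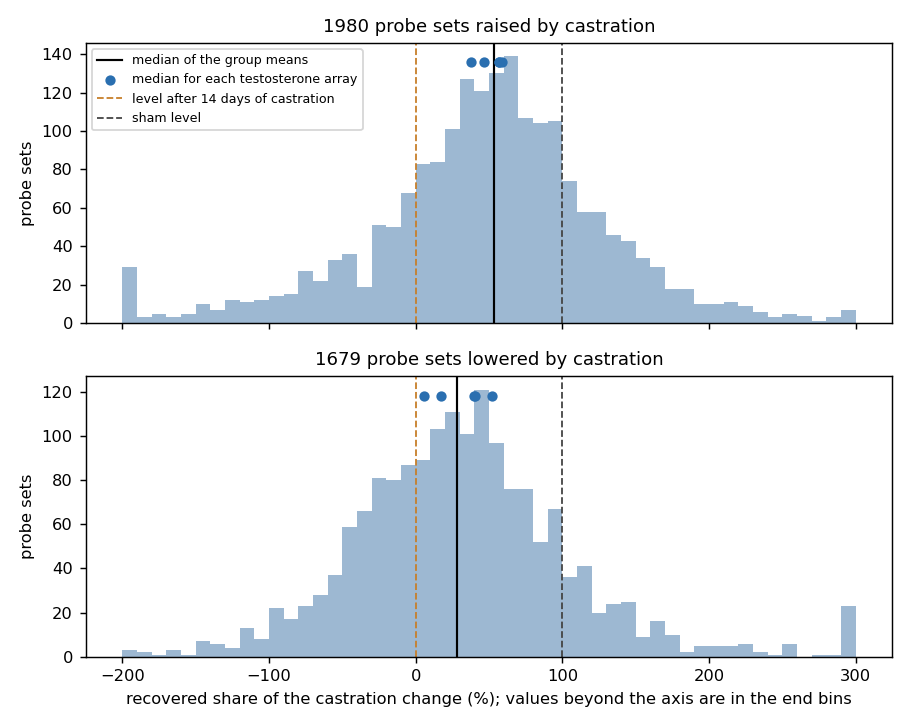
Histograms of the recovered share of the castration change, in percent, for 1980 probe sets raised and 1679 lowered by 14 days of castration, where 0 is the castrated level and 100 the sham level. The black line is the median (53.1% and 28.5%), and blue points are the medians computed from each of the 5 testosterone arrays alone.

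Genes of DNA replication and mitosis stood highest above the intact gland. Of 56 genes of mitosis and chromosome segregation on the array, 50 passed the filter, 27 of them only by their testosterone arrays, so that the count after filtering was bound to be high. Fitted without any filter, 49 of the 56 were higher and 2 lower (median log2 change 2.17), where 16.9% of 8251 genes were higher and 25.9% lower with a median of -0.19. For DNA replication and S phase 41 of 49 were higher and 1 lower (median 1.52). Before regrowth began, after 14 days of castration, 9 of the 50 mitosis genes that passed the filter were higher than sham and 13 lower (median -0.24), and 14 of 35 S phase genes were higher and 2 lower (median 0.34). Over all 5372 genes castration gave 30.4% higher and 23.7% lower (median 0.04).

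Mki67, which encodes the proliferation antigen Ki-67 of dividing cells, rose most. It had signals of 52.4, 80.5, 55.7, 33.3 and 25.5 in sham, 37.2, 32.2, 29.6, 19.8 and 19.6 after castration and 1545, 1352, 1191, 1379 and 1367 in the testosterone group. The testosterone arrays lay close together and far above all others, with sham and castrated glands both near the background. The change was 4.54 (SE 0.22, adjusted p = 1.42e-11). Cdc20, the activator of the anaphase-promoting complex, had 249, 248, 244, 165 and 318 in sham, 222, 247, 224, 219.5 and 205 after castration and 3107, 2560.3, 2700, 2766 and 3111 with testosterone. Its sham and castrated arrays overlapped and its testosterone arrays stood clear of both (11.3-fold over sham, log2 3.50, SE 0.13, adjusted p = 4.07e-13). The mitotic kinase Cdk1 averaged 113 ± 50.4 in sham and 1641 ± 263 in the testosterone group (SD, n = 5 each), a log2 change of 3.81. The spindle protein gene Nusap1 went from 51.7 to 889 and Cdkn3, a phosphatase acting on cyclin-dependent kinases, from 18.1 to 444 (log2 3.90, or between 3.29 and 4.66 with other pseudocounts). Top2a, the topoisomerase that untangles chromosomes, rose by 3.45 and Stmn1, a microtubule-destabilising protein, by 3.67. Stmn1 had already been raised by castration (log2 1.28), whereas Top2a had been lowered (-0.98). The single mitosis gene called lower after filtering was the phosphatase gene Cdc25a (-0.43, SE 0.10, adjusted p = 0.0012), named after its values were seen.

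In S phase, Mcm5, a subunit of the replicative helicase, had 371, 86.8, 52.3, 130 and 295 in sham, 367, 293, 345, 382 and 255 after castration and 1919.7, 1398, 1605, 1802 and 1540.4 in the testosterone group. Sham arrays varied widely and overlapped the castrated ones, and all testosterone arrays were above both (log2 3.36, SE 0.34, adjusted p = 2.39e-07). The ribonucleotide reductase subunits, which make the DNA precursors, were raised 7.09-fold (Rrm1) and 6.60-fold (Rrm2), and Uhrf1, which carries DNA methylation through replication, 9.42-fold. The chromatin assembly gene Chaf1a, named after its values were seen because its promoter is shown, had 71.0, 72.0, 45.0, 106 and 92.8 in sham and 226, 294, 324, 274 and 252 with testosterone, with no overlap. Its change was 1.70 (SE 0.24, adjusted p = 9.42e-06). Around the entry into the cycle the picture was mixed, where 24.6% of all genes were higher and 28.6% lower. Of 23 tested G1 cyclins, inhibitors and E2F genes 9 were higher and 6 lower, or 3 lower with each array centred. Among them Tfdp1, the partner of E2F factors, rose by 1.24 and Cdkn2d, a CDK inhibitor, by 2.63, while the pocket protein gene Rbl2 fell by 1.05.

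Promoters of these genes are shown because the rise was shared by genes known to carry cell cycle elements. They come from RefSeq (GRCm38.p6) as 300-base windows, from 250 bases before to 50 after each start, and only bases before the start are printed, from 30 bases before the first match. For mitosis, capitals mark the CHR element (TTTGAA or TTCGAA) and the CCAAT box on either strand, CCAAT reading ATTGG when it lies on the other one. For S phase, capitals mark E2F sites (TTTGGCGC, TTTCCCGC, TTTGGCGG or TTTCGCGC, either strand, where matches may overlap). Mki67 lies at chr7:135716442-135716597 on the minus strand and Cdc20 at chr4:118437344-118437426 on the minus strand. Mcm5 lies at chr8:75109326-75109397 and Chaf1a at chr17:56040342-56040409, both on the plus strand.
Mki67: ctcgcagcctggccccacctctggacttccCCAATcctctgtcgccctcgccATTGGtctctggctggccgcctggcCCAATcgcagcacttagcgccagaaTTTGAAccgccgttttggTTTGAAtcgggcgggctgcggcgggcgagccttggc
Cdc20: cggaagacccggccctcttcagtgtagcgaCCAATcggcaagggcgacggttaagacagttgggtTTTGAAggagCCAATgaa
Mcm5: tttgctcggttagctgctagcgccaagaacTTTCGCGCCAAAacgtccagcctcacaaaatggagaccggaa
Chaf1a: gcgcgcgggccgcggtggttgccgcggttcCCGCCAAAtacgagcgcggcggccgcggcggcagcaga
Of the 35 mitosis genes called higher that had a promoter in the table, 27 held a CHR match (77.1%) and 31 a CCAAT box (88.6%), against 21.7% and 41.1% of all 27025 genes. An E2F match was found in 1 of these 35 (2.86%) and in 13 of 30 S phase genes called higher (43.3%), against 2.7% of all genes. Over all tested members, called or not, the shares were 71.8% for CHR and 84.6% for CCAAT in 39 mitosis genes, and 43.8% for E2F in 32 S phase genes. Cdc25a, called lower, held CCAAT and E2F matches. The shares thus describe the lists, and a link to the rise was not tested. These are matches of letters in a window, not sites shown to be bound.

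Many transcripts of cholesterol synthesis were above the intact level as well. Of 18 genes of cholesterol synthesis and uptake on the array, fitted without any filter, 11 were higher and 1 lower (median 0.68). The filter passed 15, of which 3 came through only by their testosterone arrays and so had to be high, and of the other 12 it was 8 that were higher. Among the 15 none was lower by limma, at an adjusted or an unadjusted p under 0.05 (median 0.71). With the filter, 24.6% of 5372 genes were higher, 28.6% lower and the median was -0.07. After castration alone 3 of the 15 were higher and 3 lower (median -0.05). Idi1, which isomerises the isoprene units of the pathway, had 289.6, 145, 120.5, 95.8 and 219.8 in sham, 264, 376, 349, 206 and 120 after castration and 1352, 1544, 1289, 1661 and 1490.5 in the testosterone group. Every testosterone array was far above every other array, a change of 3.08 (SE 0.27, adjusted p = 4.62e-08). Other enzymes of the pathway rose less: Hmgcs1, the synthase that starts the pathway, 3.00-fold, Fdps, the farnesyl diphosphate synthase, 3.16-fold, and Sqle, which epoxidises squalene, 2.92-fold. Of these Hmgcs1 alone had been called higher after castration (0.70). Of 17 tested genes of fatty acid synthesis and desaturation 9 were higher and 1 lower (median 0.32), and 1 of the 17 passed the filter only by its testosterone arrays. With no filter 8 of 19 were higher and 1 lower (median 0.21), where 16.9% and 25.9% of all genes were. Among the rises was the desaturase Scd1 (3304 ± 214 in sham, 6567 ± 673 with testosterone, SD, n = 5 each, adjusted p = 6.21e-06 in limma). The member that fell was the mitochondrial acetate-activating enzyme Acss1 (log2 -0.81). The full sterol element, which was the one planned for this search, was found in none of 12 promoters of tested cholesterol genes, against 0.0999% of all genes. Its shorter core CACCCCAC was found in 1 of the 12, that of Hmgcs1, against 3.3% of all genes.

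**Figure D3:**
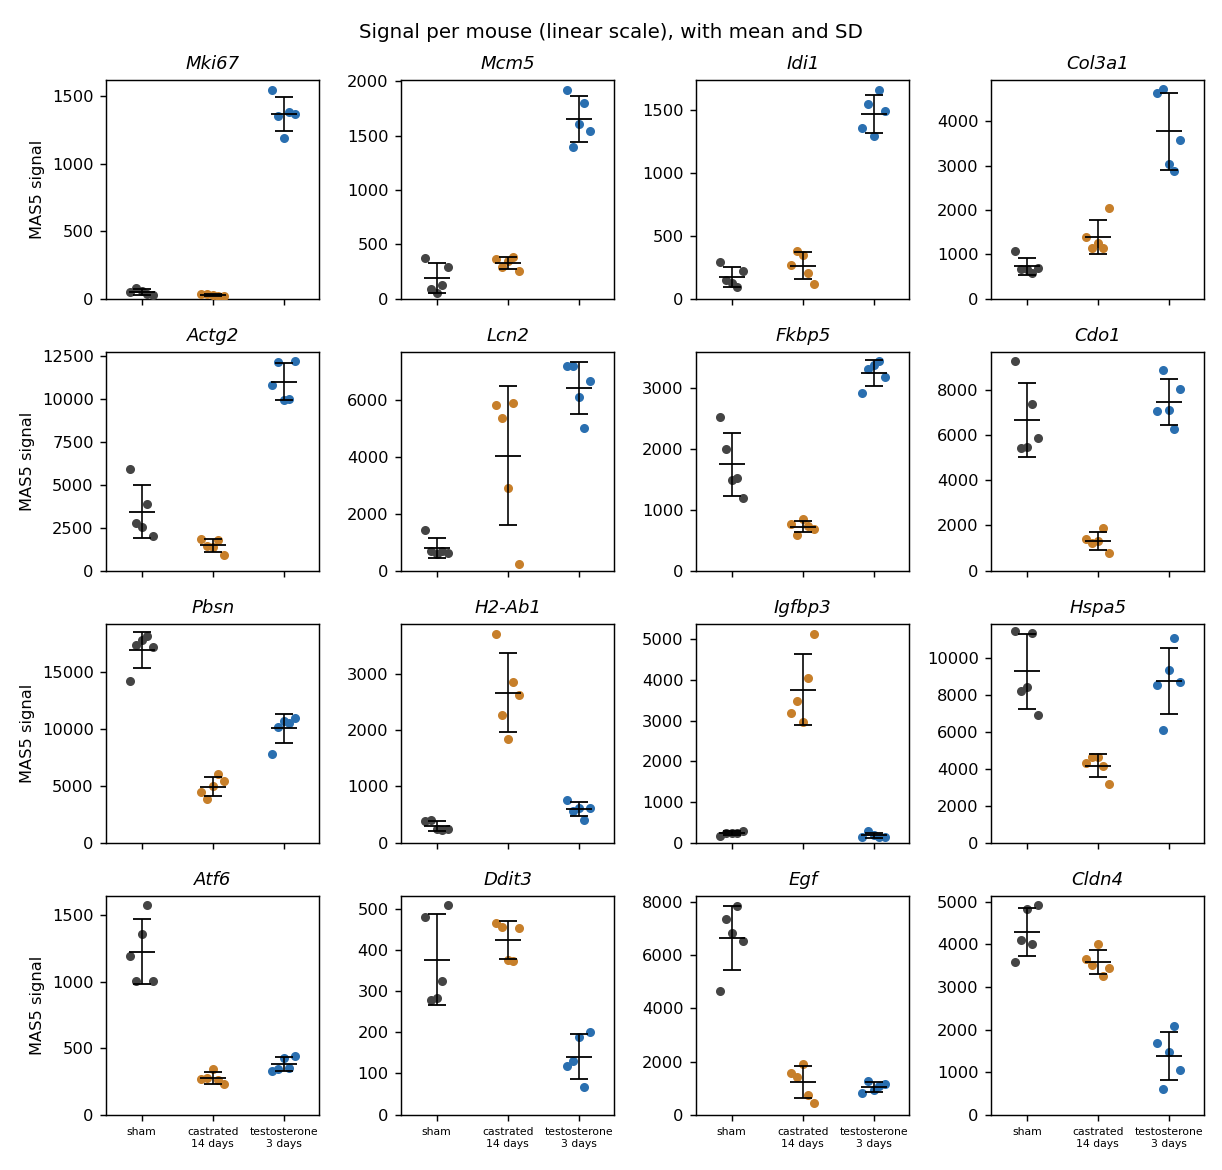
MAS5 signals on a linear scale from 0 for 16 genes, 1 point per mouse (n = 5), with the group mean and SD in black. Mki67, Mcm5, Idi1, Col3a1, Actg2 and Fkbp5 stand above both other groups, Cdo1, Igfbp3 and Hspa5 overlap the sham arrays, and Egf and Atf6 remain near the castrated level.

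The fibroblast and extracellular matrix list had more rises than falls, with fibrillar collagens among its largest rises. Of 43 tested fibroblast and extracellular matrix genes 27 were higher and 5 lower than sham (median 0.76), where 24.6% and 28.6% of all genes were. With each array centred 1 of the 43 was lower. After castration, against the same sham arrays, 28 were higher and 2 lower (median 0.77), but the members differed in what testosterone did. The fibrillar collagens Col3a1, Col5a2 and Col1a1 were above every sham and every castrated array. Col3a1, the type III collagen chain, had 1074, 659, 658, 580.4 and 684 in sham, 1392, 1135, 1259.6, 1133 and 2034 after castration and 4630.1, 4727, 3038, 2884 and 3573 with testosterone. All testosterone arrays were above all others, and sham replicate 1 was the highest of its group (log2 2.35, SE 0.18, adjusted p = 7.68e-09). Col5a2 rose by 2.73, Col1a1 by 1.83 and the large proteoglycan gene Vcan by 2.50. A dimmer tested probe set of Col1a1 rose less (log2 0.71, means of 835 in sham and 1362 with testosterone). Col5a2 and Col1a1 were not called after castration (0.26 and -0.34). Other stromal genes were on their way down: lumican (Lum), a collagen-binding proteoglycan, averaged 715 in sham, 3789 after castration and 1406 with testosterone, and the stromal transcription factor gene Tcf21 247, 1682 and 633. Both were still higher than sham (2.00-fold and 2.52-fold) and were named after their values were seen. Basement membrane genes had 6 higher and 1 lower of 17, and 11 higher with each array centred. The count of 5 lower matrix genes became 3 without sham replicate 3, sham replicate 5 or testosterone replicate 3, and 2 with the 4 arrays of high Gapdh ratio dropped.

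Smooth muscle genes had 9 higher and 1 lower of 17 tested (median 0.34), where 24.6% of all genes were higher and 28.6% lower. Actg2, the gamma actin of visceral smooth muscle, had 5934, 2796, 2564, 3899 and 2018 in sham, 1865, 1431, 1389, 1792 and 881 after castration and 10808, 12147, 9961, 9994 and 12190.3 in the testosterone group. Castration had lowered it and testosterone carried it past every sham array, a change of 1.77 (SE 0.25, adjusted p = 1.22e-05). Acta2, the smooth muscle alpha actin, rose 1.64-fold and the tropomyosin Tpm1 2.23-fold, both without overlap. Acta1, the skeletal muscle actin, was also higher (log2 1.41, SE 0.49, adjusted p = 0.0216, and 1.09 with an adjusted p of 0.0711 without sham replicate 5). Skeletal muscle markers were present in every group and varied between mice: their summed signal over 32 tested genes ran from 8763 to 32938 in sham and from 15754 to 55222 in the testosterone group, with 3 higher and 5 lower (median 0.41). Without sham replicate 5 that count was 1 higher, without testosterone replicate 5 it was 7, and leaving out 1 array at a time gave medians between 0.10 and 0.85. With the 4 arrays of high Gapdh ratio dropped, 2 of these markers were lower. With the mean level of these markers, Acta1 among them, as a covariate, the log2 change of Acta1 was 1.13 (adjusted p = 0.00665 in limma).

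Genes for energy supply and protein turnover rose by smaller steps. Of 79 tested genes of the respiratory chain, ATP synthase and citrate cycle 53 were higher and 5 lower (median 0.45). Of 42 proteasome subunits 31 were higher and 2 lower (median 0.51), where 24.6% and 28.6% of all genes were. After castration the counts were 32 higher and 9 lower, and 12 higher and 5 lower. With each array centred 3 respiratory genes were lower, and with no filter 12. With the 4 arrays of high Gapdh ratio dropped, 48 respiratory genes and 26 proteasome subunits were higher (medians 0.35 and 0.42). The ATP synthase subunit gene Atp5md rose 2.94-fold and the catalytic proteasome subunit Psmb6 2.31-fold. Among the testosterone arrays Atp5md was highest in replicates 2 and 5 (10693 and 9103), whose Gapdh ratio is high. Nucleolar and ribosome biogenesis genes had 20 higher and 5 lower of 45 (median 0.24), or 2 lower with each array centred, led by Nap1l1 (log2 1.31), a histone chaperone, and the nuclear transport GTPase Ran (4653 ± 529 in sham and 10783 ± 823 with testosterone, SD, n = 5 each). Cytoplasmic ribosomal proteins had 3 higher and 2 lower of 22 (median 0.05), smaller shares than those of all genes, or 7 higher with quantile normalization. Translation factors and aminoacyl-tRNA synthetases went the other way, with 9 higher and 26 lower of 62 (median -0.26), but 12 higher and 12 lower with each array centred. Among them the helicase Eif4a2 fell by 1.15 and the seryl-tRNA synthetase Sars by 0.98.

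Prostate secretory products differed in how far they had come back. Of 17 tested prostate secretory products 6 were higher and 2 lower than sham (median 0.10), where 24.6% and 28.6% of all genes were, and 9 were not called. The median was -0.05 with no filter, -0.0027 with array weights and as low as -0.02 on leaving out 1 array, while after castration 5 had been higher and 9 lower (median -0.56). Msmb, a major secreted protein of the prostate, had 11655, 9931, 9253, 12940.5 and 8835 in sham, 236, 154, 211, 41.4 and 29.1 after castration and 5374, 6017, 9074, 8123 and 8897 with testosterone. Every testosterone array was far above every castrated one, replicates 3 and 5 reached the sham range and the others lay below it (log2 against sham -0.51, SE 0.45, adjusted p = 0.354, 92.2% recovered). It was called lower when only the 2 groups were fitted (adjusted p = 0.0365), and was named after its values were seen. Probasin (Pbsn) had 14179.6, 17332, 17772, 18101 and 17137 in sham, 4413, 3786, 4930.4, 5992 and 5396 after castration and 7814, 10106, 10664, 10509.8 and 10969 with testosterone. All testosterone arrays lay between the castrated and the sham arrays (57.7% recovered, log2 against sham -0.76, SE 0.12, adjusted p = 2.76e-05). Lcn2, the siderophore-binding lipocalin of inflamed epithelia, had 1437, 678, 599, 678 and 629 in sham, 5809, 5358, 2895, 5893 and 244 after castration and 7176, 7176, 6087, 4993 and 6644 with testosterone. Castrated mice ranged from below sham to the testosterone level, and every testosterone array was above every sham array (log2 3.05, SE 0.60, adjusted p = 0.00033). A dimmer tested probe set of Lcn2 was not called (log2 -0.30, adjusted p = 0.184). Clusterin (Clu), a secreted chaperone that rises in regressing prostate, stayed at 12885 against 14572 after castration and 6035 in sham (log2 against sham 1.13, adjusted p = 2.02e-05 in limma).

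Genes known to respond to androgen had not moved as one. Of 22 tested, 5 were higher and 9 lower than sham (median -0.37), where 24.6% and 28.6% of all genes were. With each array centred 7 were lower (median -0.20), and with the 4 arrays of high Gapdh ratio dropped the median was -0.23. After castration 3 were higher and 14 lower (median -0.75). Fkbp5, a cochaperone of steroid receptors and a direct androgen target, had 2521, 2004, 1485, 1528 and 1197 in sham, 760.5, 591, 843, 738 and 684 after castration and 2919.5, 3319.8, 3371, 3444 and 3175 with testosterone. Castrated arrays lay below and testosterone arrays above all sham arrays (log2 against sham 0.93, SE 0.15, adjusted p = 3.89e-05). Odc1, the first enzyme of polyamine synthesis, followed the same path with some overlap (524, 321 and 842, log2 0.69, adjusted p = 0.000287 in limma). Cdo1, the cysteine dioxygenase, had 9248, 5413, 5454, 7354 and 5847 in sham, 1382, 1232, 1291, 1864 and 759.7 after castration and 7048, 8886, 7082, 6258 and 8045 with testosterone. The castrated arrays were far below, and the other groups overlapped (log2 0.19, SE 0.20, adjusted p = 0.445). Cd52, a small surface glycoprotein of lymphocytes and male tract epithelium, was 1.62-fold over sham (adjusted p = 0.0138), and 0.54 on the log2 scale with an adjusted p of 0.0657 without the 4 arrays of high Gapdh ratio. Lower than sham remained the zinc finger gene Zbtb16 (2056, 794 and 995), the metallothionein Mt1 (18575, 3506 and 11124) and the prostaglandin synthase Ptgs2. The last had 659, 858, 430.3, 230.1 and 259 in sham, 28.0, 27.4, 44.1, 19.8 and 25.1 after castration and 80.7, 28.0, 73.5, 36.7 and 24.7 with testosterone. No testosterone array reached the lowest sham array, a fall of 2.96 (SE 0.37, adjusted p = 3.43e-06).

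ER folding genes were split against sham, and many genes of the ER stress response were below sham. Of 35 tested ER folding enzymes and chaperones 11 were higher and 12 lower than sham (median -0.15), shares not far from those of all genes (24.6% and 28.6%), whereas after castration 3 were higher and 25 lower (median -0.81). The median changed sign to 0.01 with each array centred, with 5 lower, to 0.01 with the 4 arrays of high Gapdh ratio dropped, to 0.04 with array weights and to 0.0022 without sham replicate 1. Hspa5, the chaperone BiP, had 11446, 8190.4, 8419.9, 11371 and 6935 in sham, 4320.3, 4624, 4614, 4159.5 and 3165 after castration and 8551, 6102, 9332, 11093 and 8712 with testosterone. Its testosterone arrays were above all castrated arrays and overlapped sham, with replicate 2 below the sham range (log2 -0.08, SE 0.16, adjusted p = 0.685). Dnajc3, a cochaperone of BiP, had 9684, 5165, 5533, 7357 and 6185 in sham, 1389, 1642, 1569, 2144 and 781 after castration and 3533, 4113, 4845, 4973 and 3883 with testosterone. It had risen from the castrated level and no testosterone array reached the lowest sham array (log2 -0.64, SE 0.22, adjusted p = 0.0202). The call for Dnajc3 was lost with each array centred, with array weights and without sham replicate 1 (adjusted p = 0.0999, 0.0550 and 0.0613). Both were named after their values were seen, because their promoters are shown. Prdx4, the peroxiredoxin of the ER, exceeded sham 4.36-fold, and P4hb, the protein disulphide isomerase, remained 1.91-fold below it.

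In the unfolded protein response and ER degradation list none of 23 tested genes was higher by limma, at an adjusted or an unadjusted p under 0.05. Of the list 15 were lower (median -0.84), where 28.6% of all genes were. Between 13 and 15 were lower with centring, quantile normalization or array weights, and 14 with the 4 arrays of high Gapdh ratio dropped. Of the 15, 4 had not been called after castration and were lowered from the sham level with testosterone, among them Ddit3. After castration 13 were lower and none higher, at an adjusted or an unadjusted p under 0.05 (median -0.64). Atf6, the membrane-bound factor that is released when unfolded proteins build up, had 1189, 1001, 1353, 1578 and 1002 in sham, 265, 276, 345, 262 and 228 after castration and 328, 343, 426, 354 and 441 with testosterone. The testosterone arrays overlapped the top of the castrated range and were all below the lowest sham array (log2 -1.65, SE 0.13, adjusted p = 1.14e-08, 21.2% recovered). Os9, which delivers misfolded proteins for degradation, fell by 1.51, and by 0.69 without the 4 arrays of high Gapdh ratio. Ddit3, the stress factor CHOP, had 482, 279.9, 285, 326 and 510.4 in sham, 467, 455, 376, 374 and 454 after castration and 118, 131, 189, 66.4 and 201 with testosterone. The castrated arrays lay within the sham range and all testosterone arrays were below it (log2 -1.38, SE 0.24, adjusted p = 0.000114). Protein translocation, glycosylation and vesicle transport had 12 higher and 27 lower of 78 (median -0.15), where 24.6% and 28.6% of all genes were. With each array centred 17 were higher and 14 lower (median 0.01). In castrated glands 3 were higher and 57 lower.

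Promoters of the BiP gene and of its cochaperone are shown because they carry the ER stress element, in which CCAAT and CCACG stand 9 bases apart, marked in capitals. Both come from RefSeq (GRCm38.p6) on the plus strand, Hspa5 at chr2:34771995-34772073 and Dnajc3 at chr14:118937797-118937875.
Hspa5: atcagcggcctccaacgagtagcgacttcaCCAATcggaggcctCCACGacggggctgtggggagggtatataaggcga
Dnajc3: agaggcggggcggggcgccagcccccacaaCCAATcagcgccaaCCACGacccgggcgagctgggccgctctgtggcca
The element was found, on either strand, in 7 of 32 promoters of tested ER folding genes (21.9%), against 0.137% of all 27025 genes, and in none of 19 promoters of the unfolded protein response list. Of the 7, Hspa5, Hsp90b1, Creld2 and Pdia6 were not called against sham, and Canx, Dnajc3 and Ero1b were lower, all named here for the match in their promoter and after their values were seen. With each array centred the last 3 were not called (adjusted p = 0.157, 0.0999 and 0.0756). Ero1b was not called without sham replicate 1 or testosterone replicate 3 or 4 either (adjusted p = 0.0822, 0.0508 and 0.0517), and Hsp90b1 was called higher without sham replicate 1 (adjusted p = 0.0436). Sham replicate 1 had the highest Ero1b signal of its group, 1134, where the others lay between 442 and 540.5.

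Immune genes that castration had raised were partly back down. Of 31 tested macrophage and myeloid genes 22 were higher and 2 lower than sham (median 0.93), where 24.6% and 28.6% of all genes were. In castrated glands 27 of the 31 were higher and 1 lower (median 1.63). Their summed signal ran from 12675 to 17649 in sham, from 28720 to 39147 after castration and from 20952 to 27217 with testosterone. Tyrobp, a signalling adaptor of myeloid cells, had 133, 166, 183, 186 and 226 in sham, 1442, 995, 862, 1277 and 1835 after castration and 460.2, 988, 668, 478 and 572 with testosterone. Testosterone arrays were above every sham array and all but replicate 2 below the castrated ones (log2 against sham 1.72, SE 0.21, adjusted p = 2.83e-06, 37.0% recovered). H2-Ab1, a chain of the MHC class II molecule that presents peptides, had 388, 403, 241, 228 and 247 in sham, 3719.7, 2276, 1852, 2859 and 2628 after castration and 763, 570.5, 620.1, 405 and 621 with testosterone. The testosterone arrays had left the castrated range and still did not overlap sham (log2 0.97, SE 0.20, adjusted p = 0.000556, 68.7% recovered). In all, 6 of 7 tested class II genes were higher than sham and none lower by limma, at an adjusted or an unadjusted p under 0.05 (median 0.68, against 2.48 after castration), and with no filter 6 were higher and 1 lower. Of these Ifi30, the lysosomal thiol reductase, had been lowered by castration and was above both levels, with means of 750.3 in sham, 558 after castration and 1416 with testosterone. Of 29 tested class I and interferon-induced genes 17 were higher and 1 lower (median 0.49, against 0.84). Lymphocyte genes had 1 higher and 1 lower of 9, of which 1 passed the filter only by testosterone arrays and 2 only by sham arrays. With no filter none of 31 lymphocyte genes was higher and 11 were lower, where 16.9% and 25.9% of all genes were. Cell number and RNA per cell were not measured, and the part of macrophages in the class II values was not tested.

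Among genes known from regressing prostate, some were back in the sham range and others near the castrated level. Igfbp3, which binds insulin-like growth factors, had 161, 244, 229, 227 and 285 in sham, 3181, 3485, 2977, 4046 and 5133 after castration and 142, 275, 194, 146 and 148 with testosterone. All castrated arrays were high and the other groups overlapped (log2 against sham -0.34, SE 0.23, adjusted p = 0.227), and the gene was named after its values were seen. Cdh13, T-cadherin, did likewise (means of 26 in sham, 328 after castration and 29.1 with testosterone, adjusted p = 0.837 in limma). Annexin A1 (Anxa1) had 1012, 971, 623, 416 and 572 in sham, 2943, 2583, 2685, 2861 and 2758 after castration and 1825, 3881, 2209, 2878 and 1834 with testosterone. Castrated and testosterone arrays overlapped, both far above sham (log2 1.81, SE 0.22, adjusted p = 1.68e-06, 9.57% recovered), and the other 2 tested probe sets of the gene were called in the same direction. Of 22 tested regression genes 11 were higher than sham and 5 lower (median 0.37), where 24.6% and 28.6% of all genes were. The count of 5 became 2 with each array centred and 3 with the 4 arrays of high Gapdh ratio dropped. In castrated glands 15 were higher and 3 lower (median 0.85).

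Growth factors and developmental signals had 3 higher and 12 lower of 37 tested (median -0.26), the falls near the 28.6% of all genes, after 19 higher and 8 lower in castrated glands. With each array centred 7 were higher and 8 lower, without sham replicate 1 or sham replicate 4 it was 5 or 6 that were higher, and the median was -0.04 with quantile normalization. Epidermal growth factor (Egf) had 4671, 7383, 6856, 7854 and 6527 in sham, 1579, 1399, 1909, 753 and 439 after castration and 802, 1270.4, 919, 1066 and 1149.8 with testosterone. Sham arrays stood far above both other groups, which overlapped (log2 against sham -2.66, SE 0.28, adjusted p = 4.03e-07; against castrated -0.06, adjusted p = 0.882). The insulin-like growth factor receptor Igf1r averaged 2623 in sham, 1389.9 after castration and 1155 with testosterone (log2 -1.20). For its ligand Igf1 the tested probe sets disagreed. The brighter one was not called (log2 -0.32, SE 0.16, adjusted p = 0.0963), while the other had 279.8, 33.2, 81.4, 37.8 and 22.5 in sham and 454, 885, 758, 509 and 566 with testosterone and rose by 3.08 (SE 0.41, adjusted p = 5.75e-06). Smo, the signal transducer of the hedgehog pathway, was higher than sham (68.7, 355 and 228, log2 1.59).

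**Figure D4:**
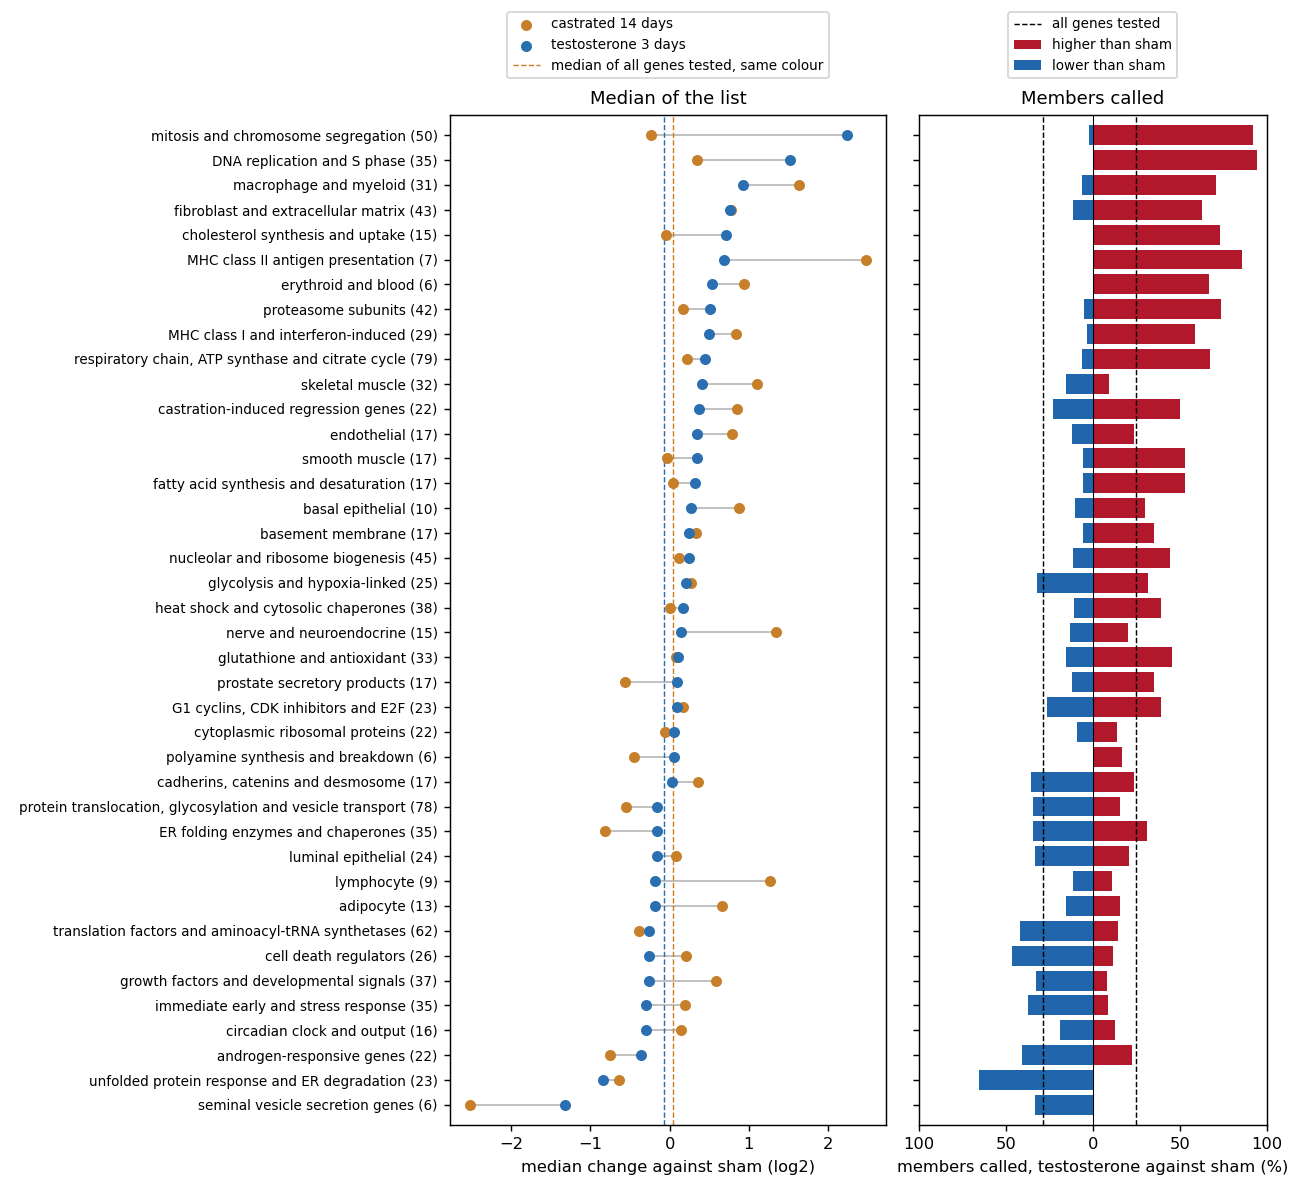
Left, the median log2 change against sham of each gene list with at least 6 tested members (number in brackets) after 14 days of castration and after 3 days of testosterone, with dashed lines for the medians of all genes tested. Right, the percent of tested members called higher or lower with testosterone, beside 24.6% and 28.6% of all genes. Mitosis and S phase genes, of which 27 and 10 passed the filter only by their testosterone arrays, lie highest. Unfolded protein response and seminal vesicle genes lie lowest, and 2 of the seminal vesicle genes passed only by their sham arrays.

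The largest falls included seminal vesicle genes. Sva, a seminal vesicle secretion gene, had 13381, 202, 619, 1529 and 185 in sham, 6.30, 33.8, 31.4, 11.9 and 9.90 after castration and 10.9, 11.9, 63.7, 127 and 64.2 with testosterone. Sham replicate 1 carried most of the sham mean and the groups did not overlap, and the fall of 4.03 (SE 0.94, adjusted p = 0.00149) became 3.05 without it. Ceacam10, another such gene, had 5027, 232, 225, 1721 and 116 in sham and 75, 18.6, 105, 154 and 76.6 with testosterone, where the groups overlap (adjusted p = 0.023 in limma, 0.0740 without sham replicate 1, and between 0.0607 and 0.134 in 4 other alternatives, without sham replicate 4, without testosterone replicate 2, with array weights and with the 4 arrays of high Gapdh ratio dropped). Of the 6 seminal vesicle genes tested none was higher, at an adjusted or an unadjusted p under 0.05 in limma. Of the 6, 2 passed the filter only by their sham arrays and so had to be high in sham. Sva and Ceacam10, or 2 of the 6, were lower, where 28.6% of all genes were. With no filter it was also 2 of the 6, where 25.9% of all genes were lower. The count was 1 with array weights or with the 4 arrays of high Gapdh ratio dropped. It was 4 with only the 2 groups fitted. Svs2, chosen after its values were seen, averaged 17502 in sham, 7317 after castration and 15456 with testosterone. Svs5, chosen likewise, averaged 19170, 5271 and 13872. It was not called, though no testosterone array reached the lowest sham array. The summed signal of the 6 ran from 49798 to 76989 in sham, from 3226 to 32239 after castration and from 40554 to 52450 with testosterone, and the part of seminal vesicle tissue in other results was not tested. The claudin gene Cldn4, for a tight junction protein, had 3578, 4105, 4826, 4018 and 4931 in sham, 3660.1, 3529, 4015, 3261 and 3451 after castration and 1686, 599, 1479.5, 2079 and 1047 with testosterone. It fell below both other groups (log2 -1.74, SE 0.22, adjusted p = 3.02e-06), lowest in replicates 2 and 5. Myh9, the non-muscle myosin heavy chain, fell by 1.95, and by 0.95 without the 4 arrays of high Gapdh ratio, while its other tested probe set was not called (log2 -0.02, adjusted p = 0.959). Other top falls included the muscarinic receptor gene Chrm1 (283 to 77.1, log2 -1.87, or -1.23 with the 4 arrays of high Gapdh ratio dropped), the fucosyltransferase gene Fut9 (594 to 143), the bile acid carrier family member Slc10a6 (392 to 91.7) and the neurofilament gene Nefh (535 to 119).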

How the data were processed

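The data are the values of 20 Affymetrix mouse arrays, 5 mice in each of 4 groups, with each mouse a separate animal. The deposited values are MAS5 signal intensities on a linear scale, made by the authors with MAS5 version 5.0 per the submitters' processing notes. The scaling settings are not given in the sources used here, and each array's mean, trimmed by 2% at each end, was between 500.2 and 500.3. Gene symbols came from the platform annotation (10833 of 12422 probe sets with 1 symbol, 396 with several, 1193 with none). For 10817 probe sets a single Entrez identifier was found in RefSeq for GRCm38.p6. Samples were grouped by their descriptions.

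Signals were transformed as log2(signal + 12.7), the 10th percentile of all signals, and 6913 probe sets above 190.8, the median, on at least 5 of 20 arrays were tested with limma 3.58.1 in R 4.3.3. All 4 groups shared 1 fit, with contrasts of testosterone against sham, castrated 14 days against sham, and testosterone against castrated, and Benjamini-Hochberg adjustment over all tested probe sets. A gene with several probe sets is represented by 1, that of the highest mean log2 value. The genes named are the 15 of largest change per direction, 6 per kind, 4 per list and a fixed set, and others are said to be chosen after their values were seen. The members and lists were chosen with earlier results of these data known. No spread beyond that of 5 mice per group is measured, and the number of arrays limits the precision. No pair among the 10 sham and testosterone arrays correlated above 0.982, so that none of them was taken for a duplicate. The castrated arrays were not compared in this way. The model was tested on simulated data. The 21 alternatives were other pseudocounts, centring, quantile normalization, other filters, only 2 groups, array weights, an intensity trend, a skeletal muscle covariate, leaving out the 4 arrays of high Gapdh ratio, and leaving out each of the 10 arrays.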

Additional observations from a re-analysis of the deposited data

Results flagged for a closer look

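In sham and the testosterone group, 81 of the named genes and 4 array quality measures were examined. The highest or lowest array stood apart from its group by Dixon's criterion in 10 of 170 series of 5 arrays, where chance gives about 1 in 20. Sham replicate 1 accounted for 7 of them. Its signal was high for Creld2 (12261, others 2094 to 3167), Ero1b (1134, others 442 to 540.5), Lcn2 (1437, others 599 to 678), Col1a1 (2011, others 697 to 926) and Col3a1 (1074, others 580.4 to 684). It was low for P4hb (1902, others 2522 to 2674) and Pbsn (14180, others 17137 to 18101). Rrm1 was low in sham replicate 2 (60.1, others 152 to 189). In the testosterone group Pdia6 was low in replicate 2 (1645, others 4579 to 6701) and Pbsn in replicate 1 (7814, others 10106 to 10969).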

How the results depend on the processing

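With each array centred on its median, 1206 probe sets were lower, 173 at least 2-fold. The kinds then held 306 further from sham and lower, 641 higher and 193 lower that overshot from the sham level, and 41 lower that had passed through it, and the recovered shares were 31.6% and 49.6% for probe sets raised and lowered by castration. With no filter 3317 were lower, 703 at least 2-fold, with 826 not yet recovered and lower and 922 further from sham and lower. Without the 4 arrays of high Gapdh ratio 189 were at least 2-fold lower. Leaving out 1 array at a time gave 1499 to 1633 higher and 1809 to 2072 lower. The alternatives were read for 81 of the named genes, without Svs5 and the genes under Other observations. Of these 81, 71 were called, and 65 of the called kept direction and call under every alternative in which they were tested. That was all 21, except for Cdkn3, Chaf1a, Ptgs2 and Vcan, which were tested in 20. No called change among the 81 changed sign, but the median of all probe sets did (-0.09 to 0.08 with centring), and so did the medians of some gene lists. No paired analysis was possible because the labels give no replicate numbers. Signals near the background limit the dim genes, whose log2 changes depend on the pseudocount.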

Other observations

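Regulators of cell death had more falls than rises against sham. Of 26 tested 3 were higher and 12 lower (median -0.26), where 24.6% and 28.6% of all genes were. With each array centred 5 were higher and 9 lower (median -0.09). After castration 11 were higher and 3 lower (median 0.21). The falls with testosterone took in both killers and protectors: the BH3-only gene Bcl2l11 had means of 692 in sham, 994 after castration and 384 with testosterone, and the survival gene Mcl1 1332, 1213 and 844. Birc3, an inhibitor of apoptosis, fell by 1.21. Apaf1, the scaffold of the apoptosome, was higher than sham by 0.62.

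Luminal epithelial genes had 5 higher and 8 lower of 24, shares near those of all genes (24.6% and 28.6%). The keratin Krt19 had means of 6303 in sham, 11936 after castration and 10386 with testosterone, whereas Spdef, a transcription factor of secretory epithelia, had 1345, 476 and 724, and the surface protease gene Prss8 1139, 879 and 465. Immediate early and stress response genes had 3 higher and 13 lower of 35, and 5 lower with each array centred. Jun, raised by castration from 221 to 550.4, stood at 135 with testosterone. In glycolysis and hypoxia 8 of 25 were higher and 8 lower, again near the shares of all genes, with 4 lower with each array centred and 5 higher with the 4 arrays of high Gapdh ratio dropped or without testosterone replicate 2. Phosphoglycerate kinase Pgk1 rose by 0.69 and the pyruvate dehydrogenase kinase Pdk4 fell by 1.71. Of clock genes, Dbp had means of 93.7 in sham, 922 after castration and 181 with testosterone, and the time of day at which glands were taken is not given in the sources used here. Bcl2l11, Mcl1, Apaf1, Krt19, Spdef, Jun and Pgk1 were chosen after their values were seen.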
